A study of Mus musculus with 2 samples.

Results

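Cajal-Retzius cells are the early-born neurons of the marginal zone, the outermost layer of the developing cerebral cortex. They secrete Reelin, the extracellular glycoprotein encoded by Reln that guides migrating cortical neurons into their layers. They arise at the borders of the pallium, among them the cortical hem and the septum, spread tangentially under the meninges and mostly die after birth. The transcription factors Trp73 (a p53 relative), the LIM-homeobox factors Lhx1 and Lhx5 and the helix-loop-helix factor Ebf3 mark them in the embryonic forebrain.

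In the single-cell RNA sequencing data described here, 79 of 16348 passing cells were chosen as Cajal-Retzius cells. A passing cell had 1500 to 60000 UMIs (unique molecular identifiers, each standing for 1 captured mRNA molecule) and under 10% of them from mitochondrial genes. A cell was a member if it held at least 5 Reln UMIs, at least 1 UMI of Trp73, Lhx1, Lhx5 or Ebf3, and none of Gad2 and Dlx1, genes of inhibitory neurons, or Sox9, a gene of radial glia. These 8 genes therefore chose the cells, and their values below are a description without a test.

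The cells came from the dissociated dorsal telencephalon of mouse embryos harvested on embryonic day 16.5 and labelled WT (wild-type), in 2 libraries named WT replicate 1 and WT replicate 6. The series was designed around the loss of Dot1l in cells with Emx1-Cre. Knockout embryos were not analysed here. Both libraries are labelled with the genotype WT, which does not say whether a Cre or a floxed allele was present, and the study describes the embryos as C57BL/6J. Since the labels do not say that each library is 1 embryo, p-values below measure the spread between 2 libraries, which may be technical in part. WT replicate 1 held 14136 cells with 74930397 UMIs and WT replicate 6 held 13046 cells with 68964234, of which 8139 and 8209 cells passed. The libraries shared 59 cell barcodes, and 920 and 857 passing cells scored as likely doublets, 2 cells captured together, none of which was removed.

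The genes that define the cells lie on several chromosomes of the mouse genome (build mm10, the same sequence as GRCm38). Reln spans chr5:21884454-22344705, Trp73 chr4:154056249-154139875, Lhx1 chr11:84517975-84525534, Lhx5 chr5:120431886-120441457 and Ebf3 chr7:137193671-137322805. Of genes outside the rule that the results turn on, Ndnf spans chr6:65671611-65712323, Car10 chr11:93096805-93601751, Nhlh2 chr3:102010111-102015492 and Cacna2d2 chr9:107399733-107529346. The sequences directly upstream of Reln and Trp73 are shown because these genes set the members apart, and the stretch between Lhx1 and Lhx1os because both transcripts were found in the same members. They come from RefSeq on GRCm38.p6, are written 5′ to 3′, and carry each CG dinucleotide in capitals. The upstream sequence of Reln is chr5:22344706-22344955 on the minus strand. That of Trp73 is given for both annotated starts, the outer at chr4:154139876-154140125 and the inner at chr4:154097174-154097423, again on the minus strand. The stretch from Lhx1 to Lhx1os is chr11:84525535-84525659 on the plus strand, with Lhx1 transcribed away from its left end and Lhx1os away from its right end.
Reln: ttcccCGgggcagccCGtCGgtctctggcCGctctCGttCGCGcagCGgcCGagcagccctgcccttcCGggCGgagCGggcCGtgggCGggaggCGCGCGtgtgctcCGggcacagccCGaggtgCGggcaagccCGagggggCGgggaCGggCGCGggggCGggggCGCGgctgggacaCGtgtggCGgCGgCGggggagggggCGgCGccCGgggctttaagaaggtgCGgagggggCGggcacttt
Trp73, outer start: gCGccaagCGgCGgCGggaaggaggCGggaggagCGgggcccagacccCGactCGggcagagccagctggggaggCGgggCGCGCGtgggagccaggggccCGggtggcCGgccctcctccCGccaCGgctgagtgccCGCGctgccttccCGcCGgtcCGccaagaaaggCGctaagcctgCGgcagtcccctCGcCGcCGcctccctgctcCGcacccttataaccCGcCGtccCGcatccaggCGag
Trp73, inner start: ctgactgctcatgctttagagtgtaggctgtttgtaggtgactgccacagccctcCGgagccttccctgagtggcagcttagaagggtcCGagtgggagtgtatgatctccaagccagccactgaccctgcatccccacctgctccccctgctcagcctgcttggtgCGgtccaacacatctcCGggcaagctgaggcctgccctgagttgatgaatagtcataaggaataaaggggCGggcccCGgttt
Lhx1 to Lhx1os: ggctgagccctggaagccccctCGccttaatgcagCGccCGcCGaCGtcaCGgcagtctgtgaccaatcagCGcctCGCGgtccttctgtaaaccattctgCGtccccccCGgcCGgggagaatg

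The 250 bases upstream of Reln held 37 CG dinucleotides at a GC content of 80%, and 2.20% of 32851 upstream windows of the same length in RefSeq held as many. The median window held 6 at a GC content of 52.4%. The outer start of Trp73 had 31 CG dinucleotides and the inner start 6. Reads were counted near the 3′ ends of transcripts, so the 2 starts of Trp73 were not told apart in these cells. The letters CAGCTG, an E-box read by many helix-loop-helix factors, occurred once in the windows of Reln and Trp73, at the outer Trp73 start, and in 13% of all windows. The letters TAATTA, a core that homeodomain factors can bind, were searched as well, occurred in none of the Reln and Trp73 windows and were present in 4.84% of all windows. Both motifs read the same on either strand.

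WT replicate 1 held 44 members, 0.541% of its passing cells (95% Wilson interval 0.403 to 0.725). WT replicate 6 held 35 members, 0.426% (0.307 to 0.592). The intervals overlap and cover counting error only. Of the 317 passing cells with at least 5 Reln UMIs, 79 were members. Another 145 held at least 1 of Gad2, Dlx1 and Sox9 and none of the 4 factors, and 37 held neither. The remaining 56 cells met the Reln and factor criteria and were kept out only by Gad2, Dlx1 or Sox9. In 23 of these 56 a single UMI did so. They held a median of 52.5 and 50 Reln UMIs in the 2 libraries, and 42 of 56 held an Ndnf UMI. They were deeper than members, with medians of 14876 and 11638.5 UMIs per cell. With these cells counted in, the share was 0.934% and 0.719%. The part that doublets and free RNA had in these 56 cells was not tested.

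**Figure D1:**
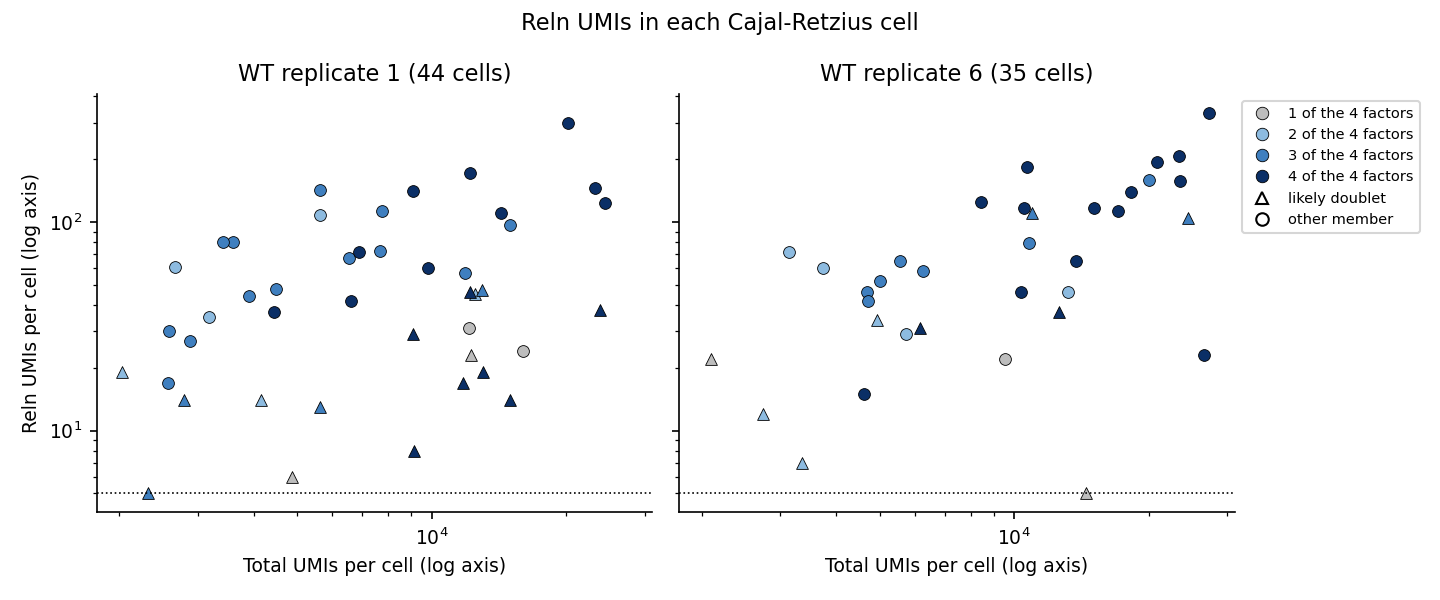
Reln UMIs (vertical, log axis) against total UMIs (horizontal, log axis) of each member in both libraries, shaded by how many of the 4 factors held a UMI. Triangles are likely doublets and the dotted line is the threshold of 5 UMIs. The most Reln UMIs in a cell were 297 in WT replicate 1 and 335 in WT replicate 6.

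Members held a median of 7716 UMIs in WT replicate 1 (range 2031 to 24408) and 10539 in WT replicate 6 (2102 to 27319), against 6924 and 6659.5 in the other passing cells. Mitochondrial UMIs made up a median of 3.60% and 3.45%. The Reln count of a member ran from 5 to 297 with a median of 44.5 in WT replicate 1, and from 5 to 335 with a median of 60 in WT replicate 6. Summed over members, Reln stood at 6689 and 7242 CPM (UMIs per 1000000 UMIs of the summed cells) against 65.0 and 63.6 CPM in all other passing cells. Few cells lay near the threshold. Among cells that met the other criteria, 15 had 1 to 4 Reln UMIs and 5 had 5 to 9. An Ndnf UMI was found in none of the 15 and in 1 of the 5, a Nhlh2 UMI in 2 and 2, and a Car10 UMI in 3 and 0.

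Trp73 was detected in 39 of 44 and 32 of 35 members, Ebf3 in 41 and 28, Lhx1 in 29 and 25, and Lhx5 in 26 and 23. All 4 factors were found together in 33 members (41.8%), 3 of them in 26, 2 in 13 and 1 in 7. After the set of all 4, the combinations held by most members were Trp73 with Lhx1 and Ebf3 (12 cells) and Trp73 with Lhx5 and Ebf3 (10 cells). Lhx1 and its divergent neighbour Lhx1os, the pair whose shared upstream stretch of 125 bases is shown above, were detected together in 36 members. Lhx1 was found alone in 18 members, Lhx1os alone in 7 and neither in 18. A factor with 1 or 2 UMIs per cell can be missed by chance of sampling, so an absent UMI is not an absent transcript.

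**Figure D2:**
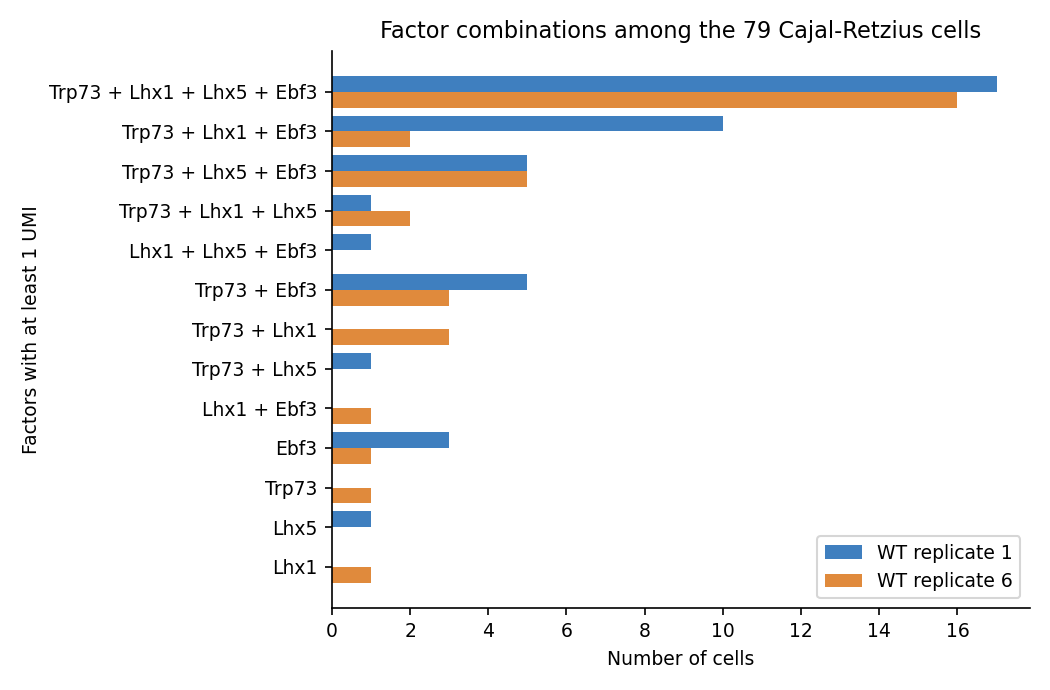
Number of members (horizontal) with each combination of detected factors (vertical), by library. The combination of all 4 held 17 members in WT replicate 1 and 16 in WT replicate 6.

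Likely doublets made up 25 of 79 members (31.6%) against 1777 of 16348 passing cells (10.9%). Their median Reln count was 19 UMIs against 69.5 in the other 54 members, and 16 of 25 held an Ndnf UMI against 49 of 54. The summed level of Ndnf was 391 and 476 CPM in likely doublets and 1250 and 1178 CPM in the other members. Genes of cortical plate neurons summed to 4370 and 3823 CPM in likely doublets and to 2247 and 3170 CPM in the others. Where a gene tested and named below lost its call without the likely doublets, this is therefore stated. Counts over gene lists are given with all members.

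To see which genes outside the rule set these cells apart, UMIs were summed per library over members and over all 16269 other passing cells and compared with edgeR's quasi-likelihood test. Members carried higher levels of a broad set of genes known for Cajal-Retzius cells, and lower levels of genes of cortical plate neurons, cycling cells and radial glia. Of 17896 genes tested, 1048 (5.86%) were higher and 1513 (8.45%) lower at an adjusted p under 0.05. Without TMM scaling the split turned to 1361 higher and 1051 lower. The median log2 difference over all genes was -0.20 with TMM and -0.04 without, so differences are read relative to these values.

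Of 26 genes linked to Cajal-Retzius cells outside the rule, a list drawn up with earlier results of these data known, 25 were tested, 16 were higher and 4 lower, with a median log2 difference of 2.66. Over all genes tested, 5.86% were higher and 8.45% lower. Ndnf, a secreted protein with neurotrophic activity, stood at 922 CPM in members of WT replicate 1 and 1036 CPM in those of WT replicate 6, against 8.74 and 8.92 CPM in the other passing cells. The groups lie far apart in both libraries. The log2 difference was 6.63 ± 0.15 (SE, adjusted p = 3.15e-05, edgeR, n = 2 libraries). Car10, a carbonic anhydrase relative without catalytic activity, was at 1054 and 949 CPM against 14.3 and 9.44 CPM, a log2 difference of 6.23 ± 0.25. Nhlh2, a helix-loop-helix factor of young neurons, was at 457 and 425 CPM against 5.79 and 5.90 CPM, a log2 difference of 6.07 ± 0.11. Members of both libraries were again far above the rest for both genes.

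Cacna2d2, an auxiliary subunit of voltage-gated calcium channels, reached 492 and 497 CPM in members against 14 and 11.5 CPM. Calb2, which encodes the calcium-binding protein calretinin, reached 452 and 381 CPM against 12.7 and 11.4 CPM. Lhx1os was at 129 and 151 CPM against 1.20 and 1.55 CPM. These 3 genes differed by log2 values of 5.11, 4.94 and 6.5. Calb2 was nonetheless uneven among members: it was detected in 36 of 79, and 1 cell of WT replicate 1 held 57 of its 182 UMIs there.

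Further transcription factors of the list were higher by smaller amounts. Ebf2, a relative of Ebf3, differed by 4.46 on the log2 scale, the patterning factor Emx2 by 3.36, the zinc-finger factors Zic2 and Zic5 by 2.85 and 2.82, and Zic1 by 1.43. The nuclear receptor Nr2f2, at 614 and 672 CPM against 94.1 and 96.6 CPM, differed by 2.59. Tbr1, a T-box factor shared with deep-layer and subplate neurons, was at 167 and 193 CPM against 49 and 53.6 CPM, a log2 difference of 1.64. Zic4 was higher by 1.52 (adjusted p = 0.0359, edgeR), and missed the threshold when no filter on low counts was applied (adjusted p = 0.0635). Among the lower genes of the list, Nr2f1, a relative of Nr2f2, was at 122 and 111 CPM against 169 and 182 CPM (log2 difference -0.76), Eomes differed by -1.39 and Ebf4 by -1.40. The call of Ebf4 was lost with the library as a block (adjusted p = 0.0853, edgeR), without the likely doublets (0.2195) and under several other settings. Those of Nr2f1 and Eomes were lost with comparison cells matched in depth (0.0950 and 0.278).

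**Figure D3:**
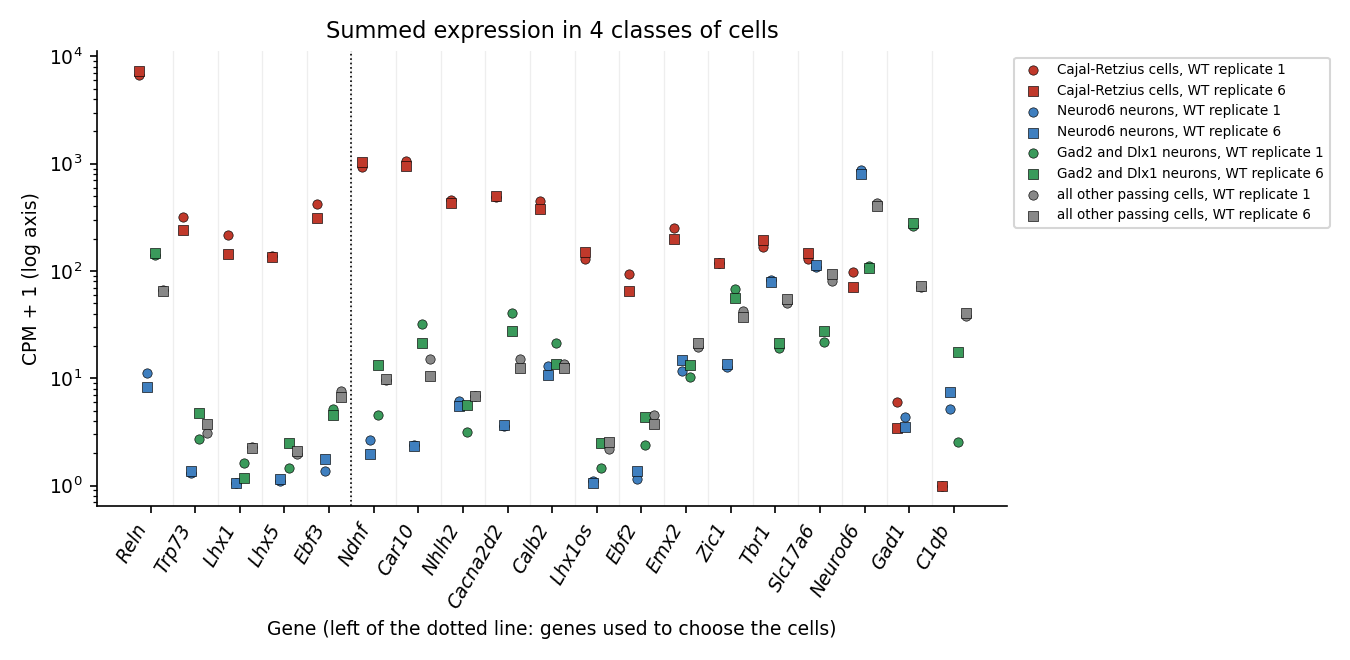
Summed level (CPM + 1, log axis) of 19 genes in members, Neurod6 neurons, Gad2 and Dlx1 neurons and all other passing cells, with 1 point per library. Genes left of the dotted line chose the members. Ndnf, Car10, Nhlh2, Cacna2d2 and Calb2 lie between 381 and 1054 CPM in members and reach at most 39.2 CPM in the other classes.

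To compare detection at equal depth, each cell was thinned to 1500 UMIs. An Ndnf UMI remained in 64.6% of members (95% Wilson interval 53.6 to 74.2) against 0.688% of other passing cells and 1.27% of microglia. The 157 microglia, chosen by a UMI of both C1qb and Csf1r, are brain immune cells and serve as a reference for RNA of other cells. Doublets were not removed from them, and the parts of free RNA and doublets in their shares were not tested. Nhlh2 remained in 34.2% of members, 0.596% of other passing cells and 0 of 157 microglia, which allows a share of up to 1.91%. Car10 remained in 53.2%, 1.09% and 1.27%. Before thinning, Ndnf was found in 65 of 79 members, Nhlh2 in 58 and Car10 in 56, at median depths of 7716 and 10539 UMIs in members and 9388 and 8795 in microglia.

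Genes outside the list also had large differences. Cd274, the ligand PD-L1 of an immune checkpoint receptor, was at 62.1 and 64.3 CPM against 0.988 and 0.839 CPM, a log2 difference of 5.94 ± 0.30. P2rx5, an ATP-gated ion channel, was at 32.3 and 29.7 CPM against 0.525 and 0.419 CPM. Mrap2, an accessory protein of melanocortin receptors, was at 29.8 and 34.6 CPM against 0.494 and 0.484 CPM. Each of these rests on few molecules, since 1 UMI in the sum over members is worth about 2.49 CPM in WT replicate 1 and 2.47 CPM in WT replicate 6. The heparan sulfate enzyme Ndst4 (log2 difference 5.74), the zinc-finger factor Insm2 (6.04), Fibin (5.82), Syndig1l (5.63), the long noncoding RNA Snhg11 (5.60), Mab21l1 (5.37) and acetylcholinesterase Ache (5.01) were higher as well. Insm2 rested on 9 UMIs in the members of each library. Fibin was uneven, with 28 of 35 and 19 of 23 UMIs in the 3 highest members.

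At the low end, Bmpr1b, a type I receptor for bone morphogenetic proteins, had 0 UMIs in members of both libraries and 91.4 and 91.9 CPM in the other passing cells. Against a floor of 3 UMIs over all members, it was at least 24.7-fold lower. The complement gene C1qb of microglia was also at 0 and at least 10.3-fold lower, and the mitotic spindle gene Aspm at least 8.40-fold lower. Among 12 genes of cycling cells all 12 were lower, beside 8.45% over all genes. Of 10 radial glia genes 7 were lower, and of 18 interneuron genes 15. The last 2 counts are partly fixed by the rule, which removed cells with Sox9, Gad2 or Dlx1.

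RNA of other cell types was detected in members. Cortical plate genes summed to 3057 and 3302 CPM in members against 7416 and 7599 CPM in the rest, radial glia genes to 281 and 235 CPM against 1511 and 1671 CPM, interneuron genes to 234 and 178 CPM against 2434 and 2358 CPM, and cycling genes to 117 and 86.5 CPM against 641 and 620 CPM. Microglia genes summed to 62.1 and 59.3 CPM in members against 224 and 209 CPM in the rest, with 7 and 6 of the 10 genes at 0. Meningeal fibroblast genes summed to 7.46 CPM in members of WT replicate 1 and 316 CPM in WT replicate 6. There a single member held 106 of 128 UMIs, and without the cell with the most the sum was 56.4 CPM. Mural cell genes stood at 37.3 and 326 CPM, with 107 of 132 UMIs in another member and 63.9 CPM without it. None of the 8 mural or 9 fibroblast genes passed the test. Choroid plexus genes differed between the libraries outside the members, at 560 CPM in WT replicate 1 and 4.82 CPM in WT replicate 6, and summed to 17.4 and 2.47 CPM in members. Erythroid genes, a sign of free red cell RNA, summed to 1434 and 1169 CPM in members against 14014 and 20561 CPM in the rest. The part of these RNAs in the results was not tested. Tbx21, a gene of olfactory bulb mitral cells which also express Reln, had a UMI in 0 of 79 members. That count allows a share of cells with a UMI of up to 3.80% and does not bound the share of cells that express the gene. Dbx1, a factor of the progenitors of one Cajal-Retzius population, had none either.

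Against a closer class, the question was what separates Cajal-Retzius cells from the excitatory neurons of the cortical plate. For this, 1909 and 2135 neurons with at least 2 Neurod6 UMIs and none of Eomes, Mki67, Gad2, Dlx1 and Sox9 served as the comparison, with medians of 9159 and 8245 UMIs per cell. Of 14463 genes tested, 1141 (7.89%) were higher and 1400 (9.68%) lower in members. Without TMM scaling these were 1683 and 833, and the median over all genes moved from -0.09 to 0.16. Of the 24 genes tested of the Cajal-Retzius list, 20 were higher and 3 lower. Of 21 cortical plate genes tested, none was higher and 19 were lower, with a median log2 difference of -1.75. Of 11 genes of cycling cells tested, 0 were higher and 0 lower, with a median of -0.29. Radial glia genes gave 3 higher and 2 lower of 10, with a median of 0.0014. Neurod6 neurons were chosen without Mki67 or Sox9 and members without Sox9, which bears on both counts. Whether the lower levels of both lists against all other cells are particular to members cannot be read from them.

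Lhx1os was at 0.106 and 0.0519 CPM in Neurod6 neurons, which is 3 cells with a UMI of 4044. Its log2 difference was 10.34 ± 0.34 (adjusted p = 2.01e-05, edgeR). Ndnf differed by 9.29 ± 0.24 and Car10 by 9.26 ± 0.17. Tmem163, a zinc transporter of synaptic vesicles and a gene of the subplate list, was at 651 and 591 CPM against 3.02 and 3.01 CPM, a log2 difference of 7.44 ± 0.12. Pnoc, which encodes the precursor of the peptide nociceptin, was at 67.1 and 91.5 CPM against 0.212 and 0.311 CPM. Pnoc was uneven among members: 6 of 44 and 6 of 35 held a UMI, and the 3 highest held 22 of 27 UMIs and 33 of 37. Plekha7, a protein of adherens junctions, differed by 8.49, Ndst4 by 8.35, Ebf2 by 7.91 and Thsd7b by 7.08. All of these were higher in members of both libraries, which naming a gene by rank required.

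Neurod2, a helix-loop-helix factor of excitatory neurons, was at 34.8 and 44.5 CPM in members and at 426 and 440 CPM in Neurod6 neurons, a log2 difference of -3.69 ± 0.17. Pou3f2, a POU factor of upper-layer neurons, was at 4.97 CPM in members of WT replicate 1 and 34.6 CPM in those of WT replicate 6, against 299 and 313 CPM, so its log2 difference of -4.19 ± 0.38 covers unlike libraries (-5.59 and -3.13). The homeobox factor Pou3f1 differed by -5.13, the semaphorin Sema3c by -5.03 and the repressor Bcl6 by -4.59. Ntf3, the neurotrophin-3 gene, had no UMI in members and was at least 6.29-fold lower, and Bmpr1b at least 40.7-fold lower. Tbr1 was higher in members than in these neurons by 0.93 ± 0.12.

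Against inhibitory neurons, 790 and 758 cells with at least 2 Gad2 UMIs, at least 1 Dlx1 UMI and no Sox9 UMI were compared, with medians of 6504 and 5894 UMIs per cell. Of 12543 genes tested, 1434 (11.4%) were higher and 1546 (12.3%) lower in members. Without TMM scaling these were 1699 and 1275, and the median over all genes moved from -0.05 to 0.06. Several genes of the Cajal-Retzius list were higher. Nhlh2 differed by 6.93 ± 0.25, Ndnf by 6.87 ± 0.45 and Lhx1os by 7.06 ± 0.36. Fibin, a secreted protein, was at 87.0 and 56.8 CPM against 0.155 and 0 CPM. Ramp1, a partner of the calcitonin-like receptor, was at 84.5 and 143 CPM against 0.933 and 1.12 CPM, and the doublesex-related factor Dmrt3 at 27.3 and 29.7 CPM against 0.466 and 0 CPM. Fibin was found in 8 of 44 and 6 of 35 members, and the 3 highest held 28 of 35 UMIs and 19 of 23. Ramp1 was found in 10 of 44 and 13 of 35 members, and the 3 highest held 23 of 34 UMIs and 35 of 58. Of 18 interneuron genes 17 were lower, as the choice of both classes by Gad2 and Dlx1 favours. Slc32a1, the vesicular GABA transporter, had no UMI in members and was at least 13.4-fold lower, and Gad1, which makes GABA, was at 4.97 and 2.47 CPM against 261 and 282 CPM.

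Reelin acts on migrating neurons through the receptors Vldlr and Lrp8 and the adaptor Dab1. Reln itself chose the members. Of the 18 other pathway genes tested against all other passing cells, 0 were higher and 5 lower, beside 5.86% and 8.45% over all genes. The median log2 difference of the 18 genes was -0.52, against -0.20 over all genes. The receptor gene Vldlr was at 7.46 and 29.7 CPM in members and 29.8 and 33.0 CPM in the rest, from 3 and 12 UMIs, and did not pass the test (log2 difference -0.92 ± 0.42, adjusted p = 0.220, edgeR). The other receptor, Lrp8, was at 89.5 and 109 CPM against 160 and 173 CPM, a log2 difference of -0.91 ± 0.15 (adjusted p = 0.0110, edgeR). With comparison cells matched in depth, Lrp8 missed the threshold (adjusted p = 0.0541, edgeR). Dab1 was at 209 and 391 CPM in members, 814 and 835 CPM in the rest and 1537 and 1540 CPM in Neurod6 neurons. Against these neurons it was lower by -2.60 ± 0.27 on the log2 scale. Against inhibitory neurons it was at -0.35 ± 0.27 and did not pass, and its sign turned to 0.69 without the likely doublets. The proteases Adamts2 and Adamts3, which cleave Reelin, were lower by -3.32 and -2.35, and the integrin subunit Itgb1 by -0.68. In members, Adamts2 had 2 and 1 UMIs, from 1 cell in each library, and Adamts3 7 and 6, from 3 and 5 cells. The call of Itgb1 was lost without TMM scaling (adjusted p = 0.0516, edgeR). With cells holding Gad2, Dlx1 or Sox9 counted as members, those of Lrp8 (adjusted p = 0.297, edgeR), Adamts2 (0.0623) and Itgb1 (0.0793) were lost.

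In the chemokine axis that holds Cajal-Retzius cells under the meninges, the receptor gene Cxcr4 was at 42.3 and 47.0 CPM in members against 5.63 and 6.37 CPM in the rest, a log2 difference of 2.73 ± 0.27 (adjusted p = 0.00185, edgeR). It was detected in 23 of 79 members, and in 3.80% of members against 1.02% of other cells after thinning, with intervals of 1.30 to 10.6 and 0.877 to 1.19, and 0.637% of microglia. Its ligand Cxcl12, made by meningeal cells among others, was at 211 and 173 CPM in members against 49.9 and 46.7 CPM, a log2 difference of 1.83 ± 0.13. Cxcl12 was uneven among members: 14 of 44 and 10 of 35 members held a UMI, and the 3 highest held 51 of 85 UMIs and 46 of 70. The scavenger receptor Ackr3 was lower, at 4.97 and 2.47 CPM against 24.9 and 26.8 CPM (log2 difference -2.96 ± 0.42). Its call was lost with cells holding Gad2, Dlx1 or Sox9 counted as members (adjusted p = 0.179, edgeR).

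Slc17a6, the vesicular glutamate transporter of the early cortex, was at 129 and 146 CPM in members and 107 and 112 CPM in Neurod6 neurons, a log2 difference of 0.09 ± 0.12 that did not pass the test (adjusted p = 0.713, edgeR) and turned to -0.11 without the likely doublets. Against inhibitory neurons, at 20.8 and 26.5 CPM, Slc17a6 was higher by 2.44 ± 0.20. Of 14 genes for chloride transport and GABA-A receptors, 13 were tested against all other cells. Of these 13, 2 were higher and 1 lower, beside 5.86% and 8.45% over all genes. The receptor subunit Gabrg3 was at 268 and 319 CPM against 72.0 and 67.4 CPM, a log2 difference of 1.91 ± 0.13, and was higher in all 3 comparisons. The chloride importer Slc12a2 was lower by -0.92, a call lost under 6 alternatives, among them without the likely doublets (-0.57, adjusted p = 0.212, edgeR), with matched depth (0.134), with cells holding Gad2, Dlx1 or Sox9 kept (0.253) and with the library as a block (0.0612). The exporter Slc12a5, with 1 UMI in the members of each library, could not be judged at this depth.

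Glutamate receptor genes went both ways. Of 16 tested against all other cells, 4 were higher and 4 lower, beside 5.86% and 8.45% over all genes. Gria2, the AMPA receptor subunit that keeps calcium out, was at 283 and 299 CPM in members against 849 and 881 CPM in the rest and 1432 in Neurod6 neurons of both libraries. The log2 differences were -1.74 ± 0.12 and -2.54 ± 0.13. The NMDA receptor subunit Grin2b was lower by -1.0 ± 0.13 against all other cells and by -1.59 ± 0.13 against Neurod6 neurons. Grin3a, an NMDA receptor subunit of low calcium passage, was at 47.2 and 44.5 CPM against 16.3 and 13.7 CPM, a log2 difference of 1.45 ± 0.26. Grik4 and Grin1 were higher by 1.56 and 1.33, calls that were lost with comparison cells matched in depth, and Gria4 by 0.45, a call lost with the library as a block (adjusted p = 0.0538, edgeR). With cells holding Gad2, Dlx1 or Sox9 counted as members, Gria2 and Grin2b no longer passed against all other cells (adjusted p = 0.0885 and 0.484, edgeR), nor did Grin2b against Neurod6 neurons (0.0669).

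Of 28 channel genes tested, 8 were higher and 3 lower, beside 5.86% and 8.45% over all genes. Calcium channel subunits made up 11 of the 28 genes and 5 of the 8. Besides Cacna2d2, the auxiliary subunit Cacna2d3 was at 524 and 578 CPM against 118 and 109 CPM (log2 difference 2.11 ± 0.12) and Cacna2d1 at 1325 and 1540 CPM against 618 and 674 CPM (0.98 ± 0.14). The pore-forming subunit Cacna1a was at 263 and 267 CPM against 87.1 and 85.8 CPM (1.45 ± 0.10), and Cacna1b was higher by 0.89. All of these but Cacna2d1 were also higher against Neurod6 neurons. The M-type potassium channel gene Kcnq3 was lower, at 112 and 109 CPM against 438 and 443 CPM (-2.16 ± 0.13), while Kcnq5 was higher by 0.75. The sodium channel Scn1a was lower (-2.46), a call lost with cells holding Gad2, Dlx1 or Sox9 counted as members (adjusted p = 0.165, edgeR). Hcn2 and Scn2a were higher by 1.72 and 0.55, and both calls were lost with the library as a block, at adjusted p = 0.0847 and 0.112 (edgeR). Scn2a also missed the threshold without the likely doublets (adjusted p = 0.0787, edgeR).

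**Figure D4:**
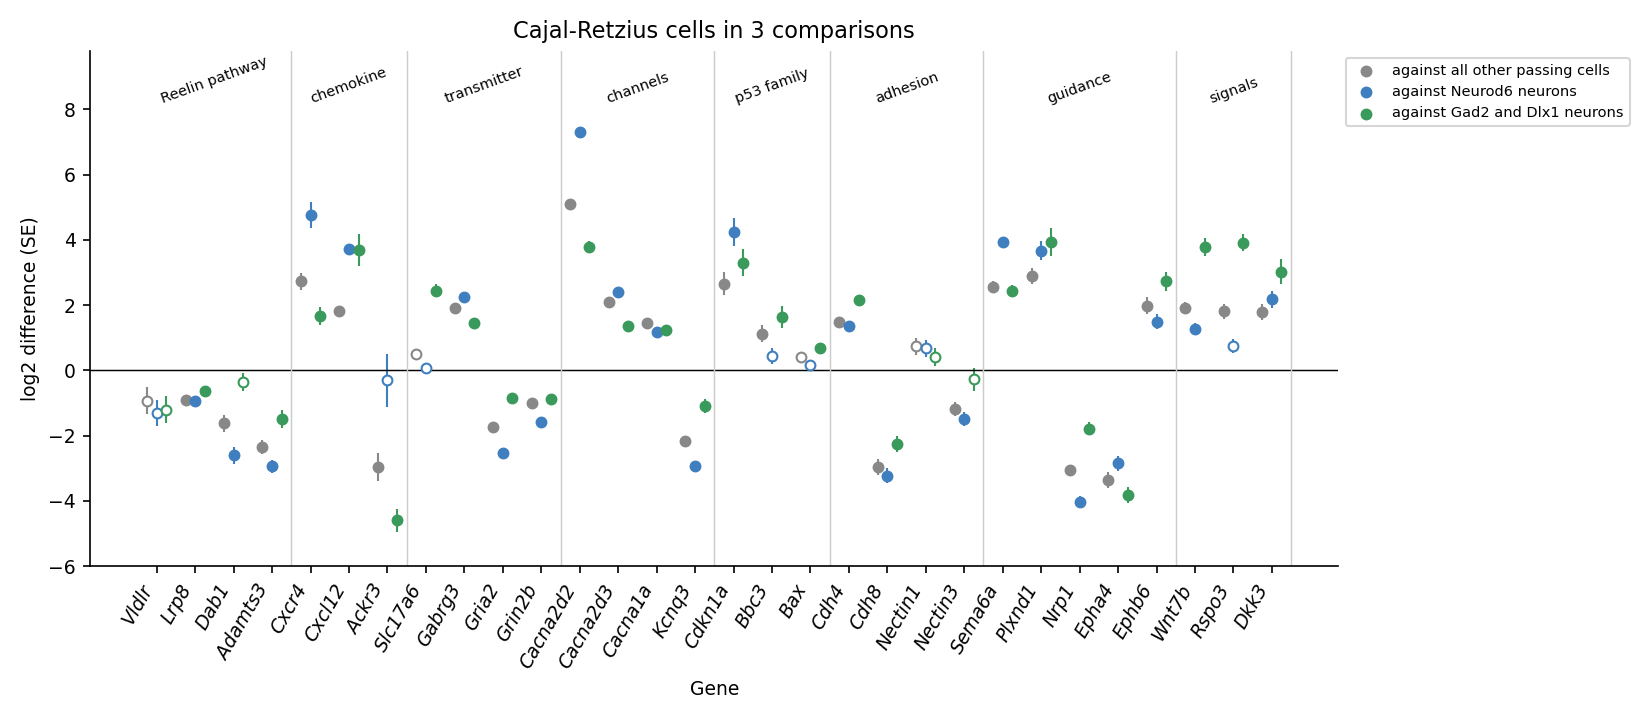
Log2 difference with its SE (vertical) of members against 3 classes for genes of 8 groups (horizontal). Filled points passed the adjusted p of 0.05 and open points did not. Cxcr4, Gabrg3, Cacna2d2, Cdkn1a, Cdh4, Sema6a and Plxnd1 lie above 0 in all 3 comparisons, and Gria2, Kcnq3, Cdh8, Nrp1 and Epha4 below.

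Of 21 genes of cell death and the p53 family, 20 were tested against all other cells, 2 were higher and 1 lower, near the 5.86% and 8.45% over all genes. Cdkn1a, the cell cycle inhibitor p21, was at 77.1 and 34.6 CPM against 8.2 and 7.56 CPM, a log2 difference of 2.66 ± 0.36 (adjusted p = 0.00575, edgeR). It was detected in 12 and 7 members, and in WT replicate 6 a single cell held 8 of its 14 UMIs. Bbc3, the pro-apoptotic gene also named Puma, was at 27.3 and 27.2 CPM against 10.9 and 11.3 CPM. Its log2 difference of 1.13 passed the test (adjusted p = 0.0349, edgeR) but not with the library as a block (0.0819). Bax, an effector of mitochondrial apoptosis, was higher against inhibitory neurons only among the 3 comparisons, by 0.68 ± 0.13, at 241 and 252 CPM against 134 and 151 CPM. Trp53 itself was lower by -1.06, a call lost without the likely doublets.

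Adhesion genes of the marginal zone gave 1 higher and 4 lower of 12 tested, beside 5.86% and 8.45% over all genes. Cdh4, the R-cadherin gene, was at 870 and 855 CPM against 271 and 282 CPM, a log2 difference of 1.48 ± 0.11, and was higher in all 3 comparisons. Cdh8 was lower in all 3, at 29.8 and 56.8 CPM against 302 and 300 CPM (-2.96 ± 0.23), though its call against all other cells was lost with cells holding Gad2, Dlx1 or Sox9 counted as members (adjusted p = 0.117, edgeR). Cdh2, the N-cadherin gene through which migrating neurons adhere, was lower by -0.95 ± 0.19, a call lost with comparison cells matched in depth (adjusted p = 0.0509, edgeR). Nectin1, known in Cajal-Retzius cells as the partner of Nectin3 on migrating neurons, was at 84.5 and 44.5 CPM against 32.6 and 35.9 CPM and did not pass the test (0.75 ± 0.26, adjusted p = 0.119, edgeR). Nectin3 was lower by -1.19 ± 0.22.

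Semaphorin, plexin and neuropilin genes gave 2 higher and 9 lower of 20, beside 5.86% and 8.45% over all genes. Plxnd1, a receptor of class 3 semaphorins, was at 59.7 and 79.1 CPM against 8.83 and 7.84 CPM (log2 difference 2.89 ± 0.24). Sema6a, a membrane-bound semaphorin, was at 442 and 603 CPM against 83.1 and 74.4 CPM (2.57 ± 0.18). Nrp1, the co-receptor of class 3 semaphorins, was at 42.3 and 54.4 CPM against 349 and 367 CPM (-3.05 ± 0.17). Ephrin and Eph receptor genes gave 1 higher and 7 lower of 17, beside the same 5.86% and 8.45%. Ephb6, an Eph receptor without kinase activity, was higher by 1.98 ± 0.26, and Epha4 was lower, at 42.3 and 19.8 CPM against 290 and 277 CPM (-3.36 ± 0.25).

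Of 28 signalling genes, 24 were tested, 4 were higher and 6 lower, beside 5.86% and 8.45% over all genes. The ligand gene Wnt7b was at 201 and 131 CPM against 37.3 and 41.0 CPM (log2 difference 1.92 ± 0.19). Rspo3, a secreted amplifier of Wnt signals made in the cortical hem, was at 174 and 292 CPM against 61.6 and 56.8 CPM (1.81 ± 0.22). It did not pass against Neurod6 neurons, which stood at 123 and 110 CPM. Dkk3 was higher by 1.80 ± 0.23, and Notch1, the receptor kept by progenitors, was lower by -3.07 ± 0.31. Dll3 was higher by 1.48, a call lost with the library as a block (adjusted p = 0.051, edgeR). Of 7 genes of the Dot1l complex, 1 was lower, beside 8.45% over all genes. This gene was Mllt3, at 348 and 341 CPM against 888 and 909 CPM (-1.55 ± 0.12). Dot1l, the gene targeted elsewhere in the series, was at 39.8 and 29.7 CPM in members against 40.9 and 38.9 CPM in the rest and did not pass (-0.37 ± 0.20, adjusted p = 0.364, edgeR).

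Genes used by neurons in general went both ways, with 4 of 14 higher and 3 lower, beside 5.86% and 8.45% over all genes. Gap43, a protein of growing axons, was at 1715 and 1955 CPM against 271 and 281 CPM, a log2 difference of 2.57 ± 0.14, and was also higher against Neurod6 neurons (1.97 ± 0.13). The neurofilament gene Ina was higher by 1.82 ± 0.15. Dcx, a microtubule protein of migrating neurons, was lower by -1.26 ± 0.13. Penk, the proenkephalin gene, was at 42.3 and 14.8 CPM against 2.86 and 1.76 CPM (3.46 ± 0.65), from 5 and 4 members with a UMI.

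The members were then split by Trp73. The 71 members with a Trp73 UMI held a median of 58 Reln UMIs, and the 8 without one a median of 22.5, at median depths of 9098 and 10836 UMIs per cell. Ndnf was detected in 65 of 71 and in 0 of 8. Nhlh2 was found in 56 of 71 and 2 of 8, Cacna2d2 in 63 and 1, and Car10 in 52 and 4. Slc17a6 and Zic1 were detected in both kinds, in 39 of 71 and 5 of 8 and in 38 of 71 and 4 of 8. Likely doublets made up 20 of the 71 and 5 of the 8, and the member of WT replicate 6 with 106 UMIs of fibroblast genes was among these 5.

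**Figure D5:**
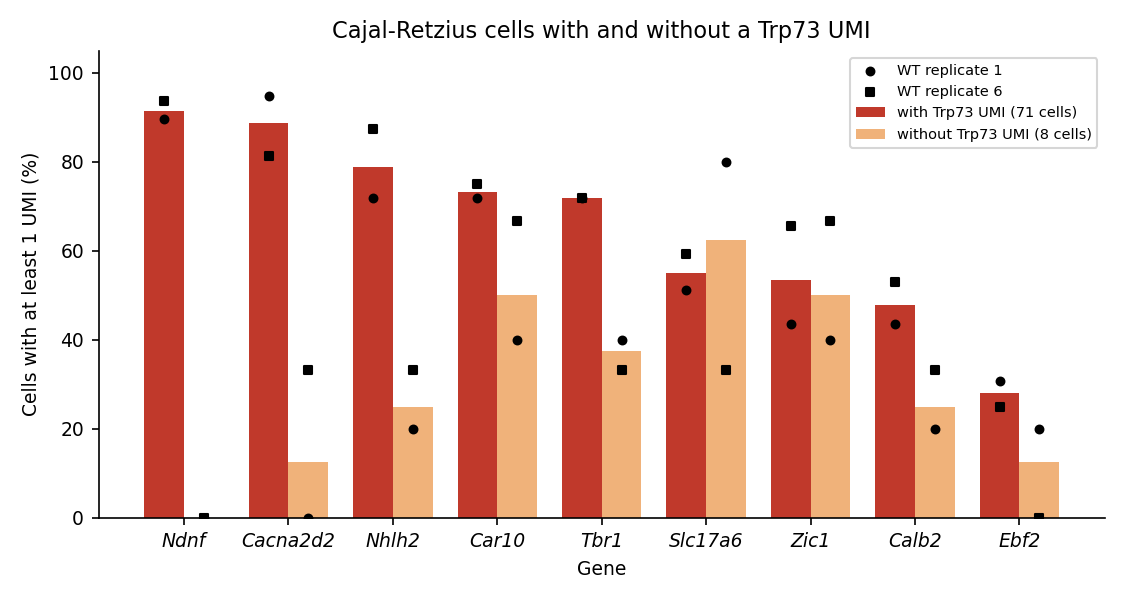
Share of members with at least 1 UMI (vertical, %) of 9 genes in members with and without a Trp73 UMI. Bars are all cells of both libraries and points are single libraries. Ndnf was in 91.5% of members with Trp73 and in none of the 8 without.

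Sums over both kinds of member were compared across 4308 genes, with 39 and 32 cells against 5 and 3. Trp73 is a gene of the rule, so members without it entered through another factor, and an absent Trp73 UMI is not an absent transcript. Single genes are therefore given as values without p-values, though the named ones were chosen among the called genes. Of the 4308 genes, 8 (0.186%) were called higher with Trp73 and 31 (0.720%) lower. The split uses a gene of the rule, so these counts are a description and no evidence of 2 kinds of cell. With the library as a block the counts were 4 and 13. Without the likely doublets they were 11 and 12 of 2848 genes, with only 2 and 1 members without Trp73 left. Ndnf had 371 and 419 UMIs in members with Trp73 and none in members without, which is at least 27.6-fold higher against a floor of 3 UMIs over the 8 cells. Hs6st3, a heparan sulfate sulfotransferase, was at 854 and 756 CPM against 21.0 and 0 CPM. Cacna2d2 was at 558 and 532 CPM against 0 and 34.5 CPM, and Nhlh2 at 516 and 453 CPM against 21.0 and 69.1 CPM.

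On the other side, the values came from very few cells. Of the 10 named genes with the lowest differences, 4 had a UMI in at most 2 of the 8 members without Trp73. Zfp521, a zinc-finger factor, was at 28.2 and 21.3 CPM with Trp73 and 336 and 311 CPM without, and its 16 and 9 UMIs in members without Trp73 came from 1 cell in each library. Cntn6, a contactin, had 33 UMIs in members without Trp73 in WT replicate 1, of which 1 cell held 32, and 2 in WT replicate 6. Eomes, a T-box factor of intermediate progenitors and of some Cajal-Retzius populations, was at 2.82 and 10.6 CPM against 252 and 138 CPM, with UMIs in 3 of 5 and 2 of 3 members without Trp73.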

How the data were processed

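Single-cell RNA of 2 WT libraries was analysed. Per the labels, the dorsal telencephalon was dissociated with papain and libraries were made with 10x Genomics 3′ chemistry. The authors made the deposited matrices with Cell Ranger 7.0.0 on mm10, and they hold unnormalized UMI counts for each cell. Whether introns were counted is not given in the sources used here.

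The members, gene lists and tests were chosen with earlier results of these data known. UMIs were summed per library and class and compared with edgeR 4.0.16 in R 4.3.3 (quasi-likelihood test, two-sided, TMM scaling, filterByExpr, Benjamini-Hochberg adjustment over all genes tested, threshold 0.05). The genes of the rule and mitochondrial genes were not tested, nor were Neurod6, Eomes and Mki67 against Neurod6 neurons. CPM are UMIs per 1000000 UMIs of a sum. A count of 0 was set to a floor of 3 UMIs over a class. Likely doublets were scored against simulated doublets (scikit-learn 1.9.0). The edgeR step was tested on simulated data. Intervals cover counting error only.

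Genes were named if they stood in a list, or were among the 15 highest and 10 lowest called genes of a comparison (10 and 10 for Trp73) with at least 20 CPM in both libraries in the class where they were higher, the same sign in both libraries and no predicted-gene name. Both classes of a comparison came from the same libraries, so the library pairs them. Across genes, the deviations of the 2 classes correlated at 0.109 against other cells, 0.147 against Neurod6 neurons, 0.157 against inhibitory neurons and 0.0899 for Trp73. Alternatives were DESeq2 1.42.0, no TMM scaling, no low-count filter, the library as a block, stricter thresholds for Reln, factors and cells, likely doublets left out, comparison cells matched in depth and each library left out. Keeping cells with Gad2, Dlx1 or Sox9 was added after seeing the data. Some items are not reported here.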

Additional observations from a re-analysis of the deposited data

How the results depend on the processing

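Of 190 called results for named genes, none changed sign under any alternative that could be run, and none did within a single library. For genes named by rank rather than from a list, the same sign in both libraries was a condition of naming. For these the agreement within single libraries was fixed in advance. With the library as a replicate block, 175 of 190 kept their call, and the counts of higher and lower genes were 839 and 1325 against other cells, 1062 and 1304 against Neurod6 neurons, 1682 and 1886 against inhibitory neurons, and 4 and 13 for Trp73. The other alternatives kept 185 of 190 (DESeq2), 183 (no TMM scaling), 177 (no low-count filter), 171 of 172 (Reln at least 10), 170 of 172 (at least 2 factors), 158 of 172 (matched depth), 169 of 182 (without likely doublets), 180 of 188 (stricter cell filter) and 118 of 140 (cells with Gad2, Dlx1 or Sox9 kept, added after seeing the data). Counts moved by over 1.5 times to 1901 higher against other cells with DESeq2, to 815 lower with matched depth and 981 with those cells kept, to 833 lower against Neurod6 neurons without TMM scaling, and to 2540 lower against inhibitory neurons without a low-count filter. For Trp73, 18 genes were higher with DESeq2, 125 were higher and 112 lower without the filter, and 12 were lower without likely doublets. Leaving out likely doublets kept only 2 and 1 members without Trp73. The mean share of members was 0.483%, ranged from 0.426% to 0.541% with 1 library left out, fell to 0.371% without likely doublets and rose to 0.826% with cells holding Gad2, Dlx1 or Sox9 kept. Uncalled results that changed sign were Slc17a6 against Neurod6 neurons (-0.11 without likely doublets, -0.086 with the stricter cell filter), Slc12a5 against the same neurons (0.12, 0.11, and 1.31 with those cells kept) and Dab1 against inhibitory neurons (0.69 without likely doublets). The cause was not tested. With 1 library left out, 1 sum per class remained, so gene counts could not be tested. Depth limits low genes: 1 UMI over all members of a library is about 2.5 CPM, and members without Trp73 were 8 cells.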
